A study of Homo sapiens with 4 samples.

Results

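The set consists of long non-coding RNAs that host small nucleolar RNAs (snoRNAs), together with other non-coding RNAs that are sensitive to decay or carry microRNAs. Its 40 members are the rows of the deposited gene table named SNHG and a number (28 rows), or named GAS5, ZFAS1, EPB41L4A-AS1, DANCR, CYTOR, MIR17HG, MIR22HG, MIR24-2, TUG1, NORAD, OIP5-AS1 or JPX, of 60595 rows in all. RNA was sequenced from A375, an established human melanoma cell line labelled wild type, after exposure to paroxetine hydrochloride, a serotonin reuptake inhibitor, or to DMSO, the solvent. Each group had 2 libraries, and the labels state neither the dose nor how long the cells were exposed. Nothing in the labels tells whether the libraries of a group are separate cultures, and the p-values therefore cover the spread between these libraries alone, part or all of which may be technical. Levels are FPKM, fragments scaled to transcript length and to library size, and differences are paroxetine minus DMSO on log2(FPKM + 1) ± SE, which understates the change of low genes.

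A snoRNA host gene is transcribed and spliced, and its snoRNAs are cut out of the introns, where they go on to guide chemical modification or cleavage of ribosomal RNA. The spliced host RNA often begins with a C and a run of pyrimidines, the terminal pyrimidine tract that also opens the mRNAs of ribosomal proteins and ties their translation to growth signals. Although most host RNAs encode no known protein, ribosomes load onto several of them, meet an early stop codon and trigger nonsense-mediated decay. GAS5 was named for its accumulation in growth-arrested cells and is known to be stabilised when translation is blocked. Other members are not snoRNA hosts: MIR17HG and MIR22HG are the primary transcripts of microRNAs, NORAD is an RNA tied to genome stability, and TUG1, CYTOR, OIP5-AS1 and JPX are long non-coding RNAs with regulatory roles of their own.

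The starts of the host genes were read because a pyrimidine tract is the sequence feature they are known for. In the RefSeq table of starts (GRCh38.p14) 35 of the 40 members had a window, and 7 of them had a C at the start followed by 4 or more of C or T, against 4.07% of all 35116 starts in the table and 46 of 79 starts of cytosolic ribosomal protein genes. The lines below give the 40 bases around the start, 20 on each side, for the 6 of the 7 that reached the filter on low values given further on, and for NORAD and MIR22HG, which host no snoRNA and lack the tract. Capitals mark the longest run of C and T.
SNHG32 (chr6:31834896-31834935, plus strand): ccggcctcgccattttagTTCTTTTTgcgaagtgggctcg
ZFAS1 (chr20:49278622-49278661, plus strand): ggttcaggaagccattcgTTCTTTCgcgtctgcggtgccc
SNHG5 (chr6:85678714-85678753, minus strand): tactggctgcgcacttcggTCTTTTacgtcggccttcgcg
SNHG12 (chr1:28581854-28581893, minus strand): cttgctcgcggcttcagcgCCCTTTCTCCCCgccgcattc
SNHG19 (chr16:2155339-2155378, minus strand): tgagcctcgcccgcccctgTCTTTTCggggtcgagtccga
SNHG4 (chr5:139274081-139274120, plus strand): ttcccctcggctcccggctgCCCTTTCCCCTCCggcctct
NORAD (chr20:36050941-36050980, minus strand): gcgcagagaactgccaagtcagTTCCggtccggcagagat
MIR22HG (chr17:1716191-1716230, minus strand): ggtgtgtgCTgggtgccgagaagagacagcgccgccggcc

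A RefSeq window describes 1 start, and several host genes have many annotated starts, GAS5 among them. In GENCODE release 29 (GRCh38) 16 of the 40 members had at least 1 transcript that starts with a C and 4 or more of C or T, against 6.58% of all genes. The members also have more transcripts, with a median of 5 per gene against 1 over all genes, and among genes with 5 or more transcripts the counts were 12 of 23 members and 20.8% of all such genes. The first 30 bases of such a transcript are given for 4 hosts whose RefSeq start does not begin so, with the run from the first base in capitals.
GAS5 (chr1:173867960-173867989, minus strand): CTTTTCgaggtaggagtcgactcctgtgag
SNHG16 (chr17:76557769-76557798, plus strand): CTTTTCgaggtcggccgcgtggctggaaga
SNHG8 (chr4:118278758-118278787, plus strand): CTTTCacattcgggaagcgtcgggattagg
SNHG29 (chr17:16438975-16439004, plus strand): CTCCTTTTgtgaggattgggatattccgac
GAS5 and SNHG16 open with the same run, and SNHG19 has it at its RefSeq start.

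The microRNA hosts are described by what they carry, since mature microRNAs were not measured here. MIR17HG holds 6 microRNA genes and MIR22HG holds 1, and the sequences below (RefSeq, GRCh38.p14) have the seed, bases 2 to 8, in capitals. The seed is the stretch that pairs with target mRNAs, and 2 pairs in the MIR17HG cluster share theirs.
hsa-miR-17-5p: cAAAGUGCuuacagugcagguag
hsa-miR-20a-5p: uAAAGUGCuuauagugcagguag
hsa-miR-18a-5p: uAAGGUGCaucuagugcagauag
hsa-miR-19a-3p: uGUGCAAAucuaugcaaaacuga
hsa-miR-19b-3p: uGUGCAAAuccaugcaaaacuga
hsa-miR-92a-3p: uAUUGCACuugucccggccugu
hsa-miR-22-3p: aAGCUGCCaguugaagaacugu

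The FPKM values of the 4 libraries summed to 606197 to 655607, and 15021 to 15223 genes per library reached 1 FPKM. No read numbers were used here, and the depth behind a value is unknown. SOX10, a lineage factor of melanocytes and melanoma, stood at 192 and 181 FPKM with DMSO and at 275 and 271 FPKM with paroxetine (adjusted p = 0.00165), and S100B, another marker of the lineage, was lower (5.09 and 6.66 against 1.89 and 2.70 FPKM, adjusted p = 0.0134). The summed level of 11 melanocyte markers was 223 and 214 against 301 and 299 FPKM, and that of the 10 other than SOX10 was 30.4 and 32.9 against 26.2 and 28.0 FPKM. The pigment genes TYR, TYRP1, DCT, MLANA and PMEL were under 1 FPKM in every library, TYR at 0 in all. Of 14 markers of keratinocytes, fibroblasts, leukocytes and endothelium 12 were under 1 FPKM in every library, COL1A2 among them at 0 in all, and their summed level was 8.40 and 12.6 FPKM with DMSO and 7.80 and 9.02 FPKM with paroxetine. Of these KRT14, a keratin gene, was lower with paroxetine (3.59 and 5.76 against 0.920 and 1.03 FPKM, adjusted p = 0.00742), and the part of these markers in the results was not tested.

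The set split. Of its 40 members 34 reached 1 FPKM in at least 2 of the 4 libraries and were tested with limma among 15511 genes, with p-values adjusted over all of them. At an adjusted p under 0.05, 10 members were higher with paroxetine (MIR22HG, SNHG7, EPB41L4A-AS1, SNHG32, GAS5, ZFAS1, NORAD, SNHG29, TUG1 and SNHG6), 6 were lower (MIR17HG, CYTOR, SNHG15, SNHG4, SNHG17 and SNHG14) and 18 were not called. Over all genes tested 38.6% were called, 18.1% higher and 20.5% lower, so the 47.1% of tested members that were called lay not far above that background. In 23 members the paroxetine libraries did not overlap the DMSO libraries, 13 above and 10 below, and over all genes this held for 71.6%. The median log2 difference of the tested members was 0.05, against -0.0047 over all genes, and it was not stable: it became -0.016 without paroxetine replicate 2, 0.13 without paroxetine replicate 1 and 0.14 after quantile normalization. Without 1 library, 7 or 8 members were called higher and 4 to 6 lower, and over all genes 1442 to 1539 were called higher and 1773 to 2221 lower. In bulk RNA a lower level can mean fewer cells that make a transcript or less of it per cell, and these cannot be told apart.

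**Figure D1:**
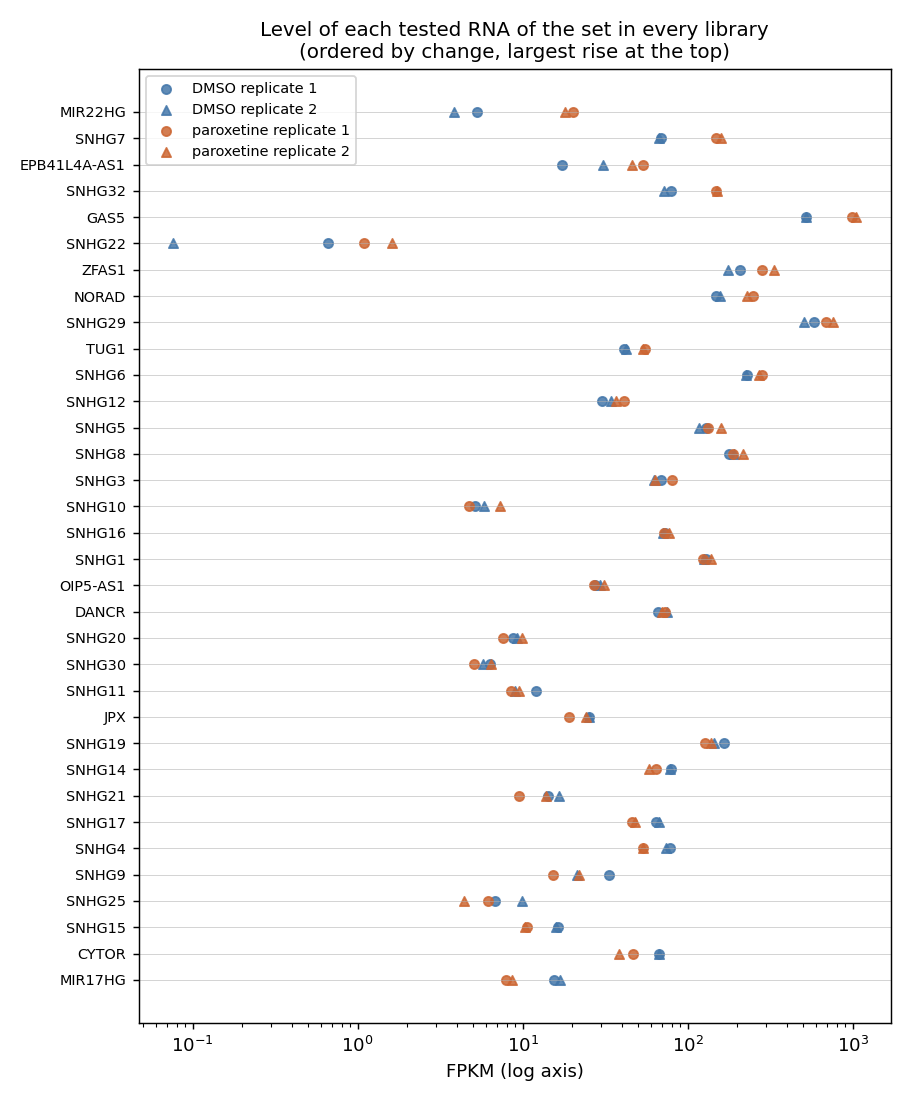
FPKM of the 34 tested RNAs in each of the 4 libraries (log axis), circles for replicate 1 and triangles for replicate 2, ordered by their change. The colours separate at the top (MIR22HG, SNHG7) and at the bottom (MIR17HG, CYTOR) and mix in the middle, and the levels run from under 1 FPKM for SNHG22 to over 1000 FPKM for GAS5 in paroxetine replicate 2.

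**Figure D2:**
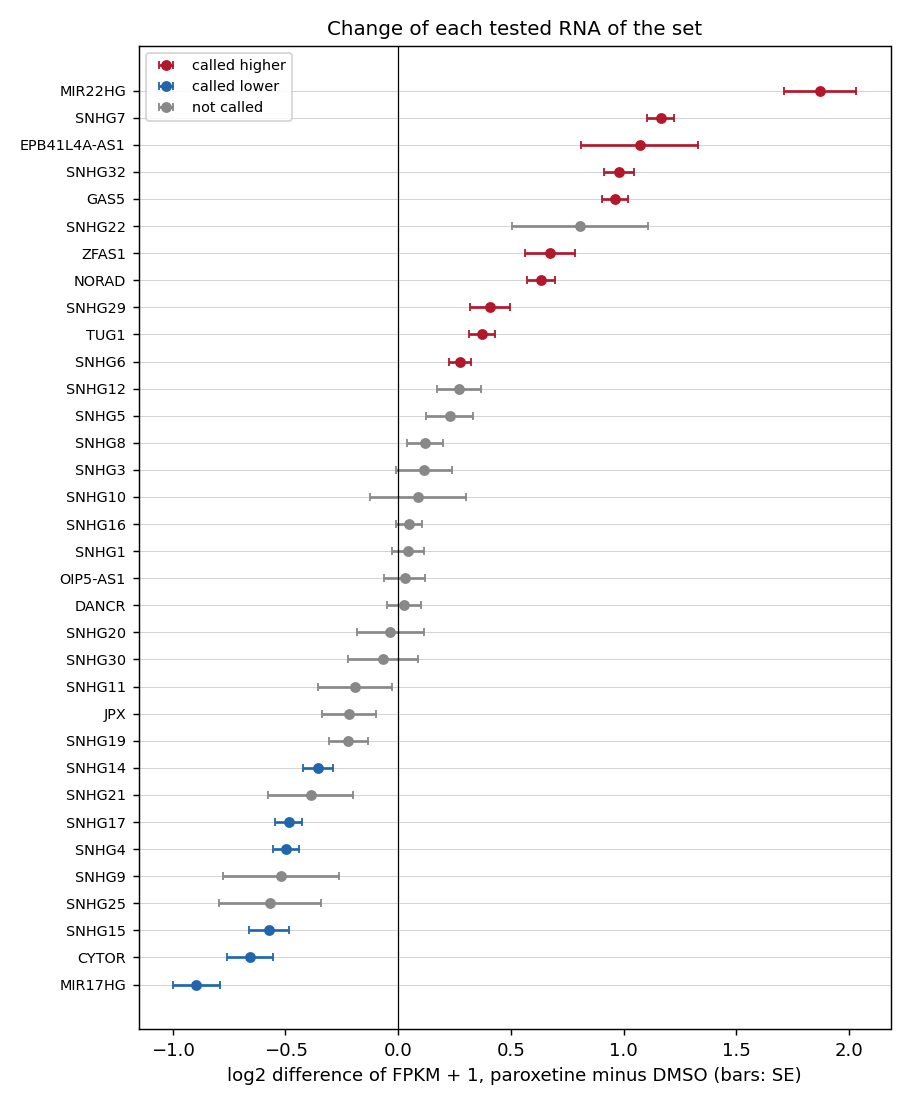
Log2 difference of FPKM + 1 between paroxetine and DMSO for the same RNAs, with its SE. The 10 called higher (red) run from 0.27 for SNHG6 to 1.87 for MIR22HG, and the 6 called lower (blue) from -0.36 for SNHG14 to -0.90 for MIR17HG.

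Among the snoRNA hosts, GAS5 had the highest level of the set with paroxetine. It holds 11 RefSeq snoRNAs, 10 of them of the C/D box class that guides methylation of ribosomal RNA. Its level was 523 and 522 FPKM with DMSO and 986 and 1052 FPKM with paroxetine (ENSG00000234741, chromosome 1, 173863900 to 173868882). The 2 DMSO libraries were nearly equal and both paroxetine libraries lay far above them, a log2 difference of 0.96 ± 0.06 (adjusted p = 0.000513). SNHG7 holds 2 H/ACA snoRNAs, the class that guides pseudouridylation. It rose from 68.5 and 66.9 FPKM to 148 and 158 FPKM (ENSG00000233016, chromosome 9, 136721366 to 136728184). This was the largest rise of any snoRNA host in the set, 1.16 ± 0.06 (adjusted p = 0.000331), with no overlap between groups.

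SNHG32, which GENCODE annotates as protein-coding, holds 2 C/D snoRNAs in the major histocompatibility region of chromosome 6 (ENSG00000204387, 31834608 to 31839766). It stood at 79.3 and 71.8 FPKM with DMSO and at 149 and 151 FPKM with paroxetine. The paroxetine libraries were close to each other and lay above both DMSO libraries (0.98 ± 0.07, adjusted p = 0.000634). EPB41L4A-AS1, host of SNORA13, was at 17.3 and 30.8 FPKM with DMSO and at 53.3 and 46.2 FPKM with paroxetine (ENSG00000224032, chromosome 5, 112160526 to 112164276). The groups did not overlap, but on the log2 scale the DMSO libraries differed more from each other than the nearest DMSO and paroxetine libraries did (1.07 ± 0.26, adjusted p = 0.0266). ZFAS1, host of 3 C/D snoRNAs of the SNORD12 family, went from 209 and 177 FPKM to 283 and 331 FPKM (ENSG00000177410, chromosome 20, 49278178 to 49295738). Both paroxetine libraries were above both DMSO libraries (0.67 ± 0.11, adjusted p = 0.00809).

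The 2 other hosts that rose did so by less. SNHG29, host of SNORD49A, SNORD49B and SNORD65, had the highest mean DMSO level of the set, 580.2 and 507 FPKM, and stood at 685 and 757 FPKM with paroxetine (ENSG00000175061, chromosome 17, 16438822 to 16478678). Its rise of 0.41 ± 0.09 (adjusted p = 0.0192) kept the groups apart. SNHG6, host of SNORD87, went from 229 and 226 FPKM to 280.3 and 269.6 FPKM (ENSG00000245910, chromosome 8, 66921684 to 66926398), a rise of 0.27 ± 0.05 (adjusted p = 0.0112). These 2, EPB41L4A-AS1 and ZFAS1 each lost the call in some alternative. Without paroxetine replicate 1 the adjusted p was 0.131 for EPB41L4A-AS1 and 0.0527 for SNHG6. Without paroxetine replicate 2 it was 0.0904 for EPB41L4A-AS1 and 0.0865 for SNHG29. Without DMSO replicate 2 it was 0.105 for SNHG29, 0.0743 for SNHG6 and 0.0515 for ZFAS1, and without DMSO replicate 1 it was 0.0647 for SNHG6. Over all alternatives the adjusted p ranged from 0.0136 to 0.131 for EPB41L4A-AS1, 0.00144 to 0.105 for SNHG29, 0.00318 to 0.0743 for SNHG6 and 0.00323 to 0.0515 for ZFAS1. The calls of GAS5, SNHG7 and SNHG32 held in every alternative.

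Of the members that host no snoRNA, MIR22HG changed most. This primary transcript of miR-22 rose from 5.27 and 3.82 FPKM to 20.2 and 18.1 FPKM (ENSG00000186594, chromosome 17, 1711493 to 1717174), 4.22-fold in the means and 1.87 ± 0.16 on the log2 scale (adjusted p = 0.00115). It was the largest difference in the set and held in every alternative. NORAD, whose name stands for non-coding RNA activated by DNA damage, is known for its part in keeping chromosome number stable. It rose from 149 and 158 FPKM to 247 and 229.5 FPKM (ENSG00000260032, chromosome 20, 36045622 to 36050960; 0.63 ± 0.06, adjusted p = 0.00163), and its groups were well apart. TUG1, a nuclear-enriched RNA first described in the mouse retina, rose from 41.2 and 42.4 FPKM to 55.4 and 53.4 FPKM (0.37 ± 0.06, adjusted p = 0.00739). The groups did not overlap, and the adjusted p was 0.05004 without DMSO replicate 1 (0.00471 to 0.05004 over its alternatives).

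The 6 members that fell also came from both kinds. MIR17HG, the primary transcript of the microRNA cluster printed above and a known target of the transcription factor MYC, fell from 15.5 and 16.9 FPKM to 7.87 and 8.66 FPKM (ENSG00000215417, chromosome 13, 91347820 to 91354579). This was the largest fall of the set, -0.90 ± 0.10 (adjusted p = 0.00276), and MIR22HG and MIR17HG thus moved in opposite directions. GENCODE also places a microRNA inside CYTOR, DANCR and SNHG20. CYTOR, a cytoplasmic long RNA linked to growth and the cytoskeleton, fell from 67.3 and 66.8 FPKM to 46.5 and 38.1 FPKM (-0.66 ± 0.10, adjusted p = 0.00647). Its DMSO libraries were close and its paroxetine libraries less so, and without DMSO replicate 1 or 2 the adjusted p was 0.0532 or 0.0513 (0.00363 to 0.0532 over its alternatives). CYTOR has a near-identical copy on the same chromosome, MIR4435-2HG, which stood at 57.0 and 69.0 FPKM with DMSO and at 38.2 and 42.4 FPKM with paroxetine (adjusted p = 0.00971), so how reads were divided between the 2 genes is uncertain.

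Of the snoRNA hosts, SNHG15 (host of SNORA9) fell from 16.4 and 15.8 FPKM to 10.6 and 10.4 FPKM (ENSG00000232956, chromosome 7, 44983023 to 44986961; -0.57 ± 0.09, adjusted p = 0.00643). SNHG4, host of 2 H/ACA snoRNAs of the SNORA74 family, fell from 78.3 and 73.8 FPKM to 53.6 and 53.4 FPKM (-0.50 ± 0.06, adjusted p = 0.00277). SNHG17, which holds 5 RefSeq snoRNAs, fell from 64.6 and 67.2 FPKM to 45.8 and 47.7 FPKM (-0.49 ± 0.06, adjusted p = 0.00307). In these 3 genes the groups stood clearly apart, and the calls held in every alternative. SNHG14 is a very long imprinted transcript with 83 C/D snoRNAs, among them the arrays lost in Prader-Willi syndrome. It went from 79.1 and 78.1 FPKM to 64.2 and 58.3 FPKM (-0.36 ± 0.07, adjusted p = 0.0119). Its call was the weakest of the 6: the adjusted p was 0.0729 without DMSO replicate 1, 0.0666 without DMSO replicate 2, 0.0502 without paroxetine replicate 2 and 0.0509 without the mean-variance trend, within 0.00757 to 0.0729 over its alternatives.

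The remaining 18 tested members were not called, which does not show that they were unchanged. In 11 of them the groups overlapped. They include abundant hosts: SNHG1, with 9 snoRNAs, stood at 129 and 126 FPKM with DMSO and at 124 and 139 FPKM with paroxetine (0.04 ± 0.07, adjusted p = 0.654). SNHG8 stood at 179 and 191 against 188 and 215 FPKM (adjusted p = 0.298), and SNHG16 at 72.8 and 71.2 against 72.3 and 76.6 FPKM (adjusted p = 0.559). DANCR, host of SNORA26 and known for holding epidermal progenitors undifferentiated, had 66.0 and 74.6 against 72.8 and 70.0 FPKM (adjusted p = 0.823). Both paroxetine values of DANCR lay within its DMSO range. SNHG3, host of the U17 snoRNAs that act in cleavage of the ribosomal RNA precursor, had 68.8 and 62.6 against 80.4 and 63.0 FPKM (adjusted p = 0.512). OIP5-AS1, known in zebrafish as cyrano and a binder of miR-7, had 27.6 and 29.6 against 27.2 and 31.3 FPKM (adjusted p = 0.836). The other 5 with overlapping groups (SNHG9, SNHG10, SNHG11, SNHG20 and SNHG30) had differences between -0.52 and 0.09.

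In the other 7 members that were not called the groups did not overlap. SNHG5 was at 129.8 and 117 FPKM with DMSO and at 132 and 159 FPKM with paroxetine (0.23 ± 0.10, adjusted p = 0.140). SNHG12 was at 30.1 and 34.2 against 41.3 and 36.6 FPKM (0.27 ± 0.10, adjusted p = 0.0806). In both the nearest libraries of the 2 groups differed by little. SNHG19 had 166 and 145 against 128 and 138 FPKM (-0.22 ± 0.09, adjusted p = 0.0961). SNHG21 (-0.39 ± 0.19), SNHG25 (-0.57 ± 0.23) and JPX (-0.22 ± 0.12), a gene of the X inactivation centre, also had both paroxetine libraries below both DMSO libraries. SNHG22 reached the filter only through its paroxetine libraries (0.660 and 0.0758 against 1.09 and 1.61 FPKM), so its direction was fixed by the filter. After quantile normalization SNHG1, SNHG5, SNHG8 and SNHG12 were called higher (adjusted p = 0.0390, 0.0266, 0.0197 and 0.0486), while over their alternatives the adjusted p reached 0.838, 0.451, 0.839 and 0.294. The 6 members below the filter were SNHG18, SNHG26, SNHG27, SNHG28 and SNHG31, at 0 to 0.813 FPKM in every library, and MIR24-2, listed at 0 in all 4.

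The summed level of all 40 members was 3204 and 3078 FPKM with DMSO and 4080 and 4311 FPKM with paroxetine. As a share of all FPKM this was 0.489% and 0.470% against 0.673% and 0.674%. GAS5 alone made up 16.3% and 16.9% of the sum with DMSO and 24.2% and 24.4% with paroxetine. SNHG29 made up 18.1% and 16.5% against 16.8% and 17.6%. Without these 2 RNAs the sum was 2101 and 2050 FPKM against 2409 and 2502 FPKM. The summed level was thus higher with and without its 2 most abundant RNAs, while the median member differed by little.

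**Figure D3:**
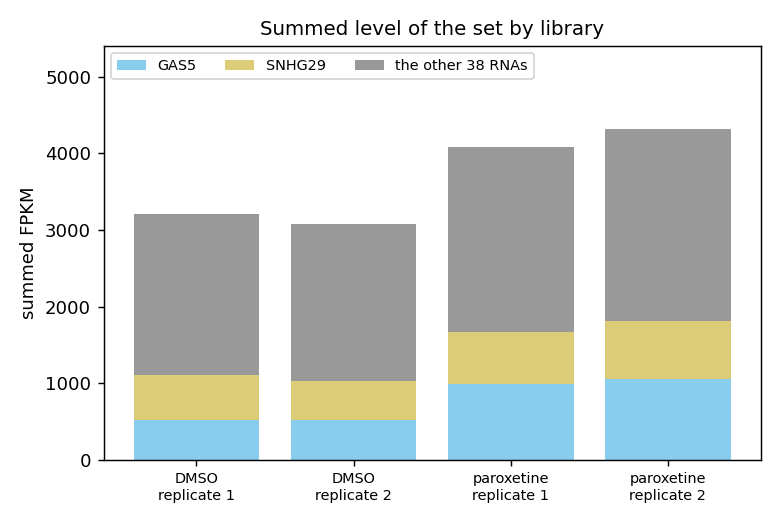
Summed FPKM of the 40 RNAs in each library (linear axis from 0), divided into GAS5, SNHG29 and the other 38. The total goes from 3204 and 3078 FPKM with DMSO to 4080 and 4311 FPKM with paroxetine, and the GAS5 part from 523 and 522 to 986 and 1052 FPKM.

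The direction of change was set beside the DMSO level, the pyrimidine tract and the snoRNAs held. Most members were chosen as snoRNA hosts, which are known for such tracts, so the tract and the snoRNAs are not independent of the choice. Of the 9 members at a DMSO mean of 100 FPKM or more, 5 were higher and 0 lower. Of the 19 between 10 and 100 FPKM 4 were higher and 6 lower, and of the 6 below 10 FPKM 1 was higher and 0 lower. SNHG22, whose direction the filter fixed, is among these 6. The shares of all genes called at the same levels were not computed, so whether these counts differ from other genes is unknown. Across the 34 members the rank correlation of DMSO level with change was 0.237, a description only, since the same DMSO libraries enter both quantities. Members with a GENCODE transcript that starts in a pyrimidine tract were found in both directions, with 4 higher, 2 lower and 9 not called of 15, and those without one had 6 higher, 4 lower and 9 not called of 19. Of the 6 expressed hosts whose RefSeq start has the tract, SNHG32 and ZFAS1 rose, SNHG4 fell, and SNHG5, SNHG12 and SNHG19 were not called. The 24 tested members whose RefSeq start lacks the tract counted 7 higher, 4 lower and 13 not called. These 7 were the snoRNA hosts GAS5, SNHG7, SNHG29 and EPB41L4A-AS1, and NORAD, MIR22HG and TUG1, which host none. The 4 were MIR17HG, CYTOR, SNHG14 and SNHG17. GAS5, SNHG29 and CYTOR do have a GENCODE transcript that starts in a tract, so for them the lack holds for the RefSeq start alone. Members holding at least 1 RefSeq snoRNA counted 7 higher and 4 lower of 23, and the others 3 higher and 2 lower of 11. The others include SNHG10, SNHG20, SNHG21 and SNHG22, in which GENCODE places small Cajal body RNAs (scaRNAs), and this count left scaRNAs out. The number of snoRNAs held had a rank correlation with change of 0.0997 over these 34 members.

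Neighbouring members did not always share a call. SNHG17, which fell, lies 11224 bases from SNHG11 on the other strand of chromosome 20. SNHG11 stood at 12.1 and 8.95 FPKM with DMSO and at 8.47 and 9.54 FPKM with paroxetine (adjusted p = 0.400), so that its groups overlapped. SNHG3 and SNHG12, 67645 bases apart on chromosome 1, were both not called. SNHG9 and SNHG19 on chromosome 16 and SNHG16 and SNHG20 on chromosome 17 were not called either.

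Whether the authors counted reads by strand is not stated in the sources at hand, and 18 of the tested members share exon bases with another gene of 1 FPKM or more, so reads of one can be counted for the other. GAS5, SNHG32, SNHG6, NORAD and MIR22HG, and of the falls MIR17HG, SNHG15 and SNHG17, had no such partner. SNHG14 overlaps UBE3A on the opposite strand (37.6 and 42.1 against 34.3 and 31.2 FPKM, adjusted p = 0.0582) and SNRPN on its own strand (88.7 and 87.3 against 79.1 and 79.4 FPKM, adjusted p = 0.0695), both lower in both paroxetine libraries as SNHG14 was. SNHG4 shares 626 exon bases with MATR3 on its own strand (17.0 and 30.2 against 18.6 and 15.5 FPKM, adjusted p = 0.289), whose groups overlapped. FAM69B, opposite SNHG7, had 4.24 and 4.04 against 3.98 and 4.00 FPKM. EPB41L4A, opposite EPB41L4A-AS1, had 1.54 and 1.37 against 1.24 and 1.47 FPKM. ZNFX1, opposite ZFAS1, had 12.2 and 13.2 against 12.2 and 11.8 FPKM. None of these 3 partners was called. LRRC75A, opposite SNHG29, stood at 33.6 and 29.5 against 35.6 and 41.6 FPKM (adjusted p = 0.0912), higher in both paroxetine libraries as SNHG29 was. Elsewhere the partner fell and the member was not called: RCC1, on the strand of SNHG3, went from 69.6 and 70.5 FPKM to 37.9 and 41.5 FPKM (adjusted p = 0.00109), OIP5, opposite OIP5-AS1, from 20.4 and 23.3 FPKM to 10.3 and 11.7 FPKM (adjusted p = 0.00285), and GLRX5, opposite SNHG10, from 38.2 and 31.2 FPKM to 25.4 and 24.9 FPKM (adjusted p = 0.0281). JPX shares 10580 exon bases with FTX on the opposite strand, which stood at 13.5 and 15.6 against 19.5 and 16.6 FPKM (adjusted p = 0.112), so the split of reads between them is uncertain. For TUG1 the opposite-strand RNA AC004542.1 was higher too (12.3 and 7.65 against 15.4 and 20.9 FPKM, adjusted p = 0.0486), and its part in the rise of TUG1 was not tested.

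**Figure D4:**
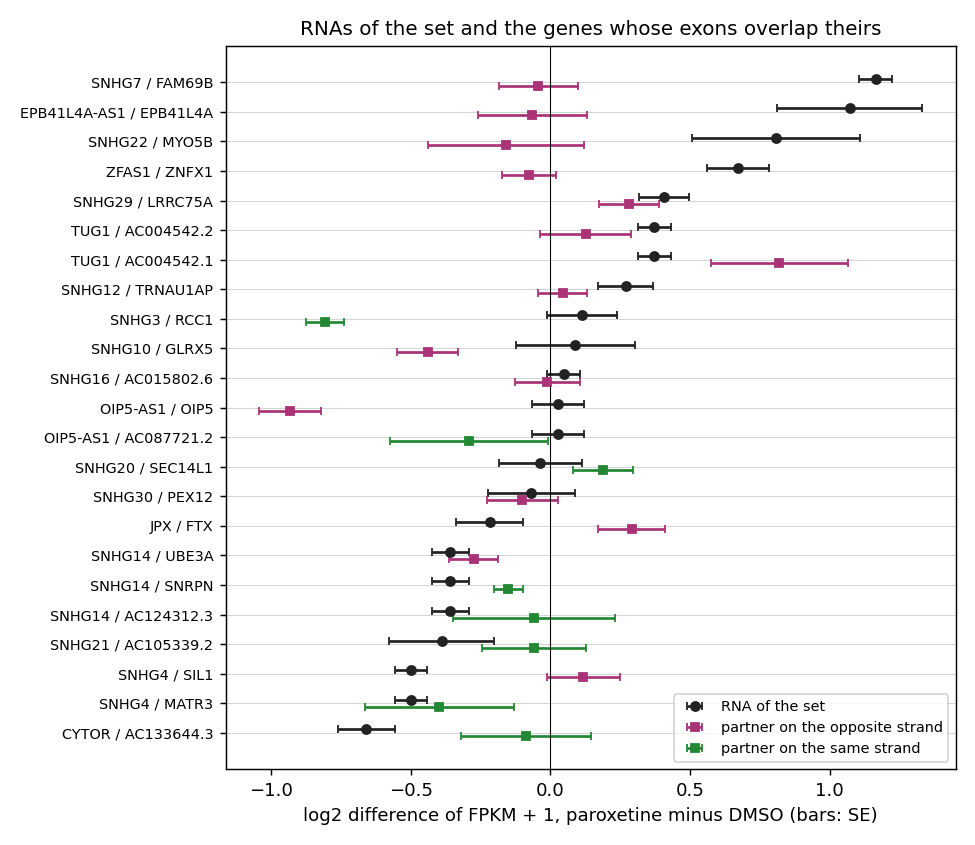
Log2 difference of FPKM + 1 (paroxetine minus DMSO, bars SE) for the 18 tested RNAs of the set that share exon bases with another gene (black). The overlapping genes lie on the opposite strand (purple) or the same strand (green). An RNA with several such partners is drawn once for each. SNHG7, EPB41L4A-AS1 and ZFAS1 lie at 1.16, 1.07 and 0.67 with partners near 0, while RCC1 and OIP5 lie at -0.81 and -0.93 beside RNAs near 0.

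The snoRNAs themselves could not be followed. RefSeq places 147 snoRNAs inside 27 of the members, by position and without strand. The table lists 130 of these by name, and 3 were above 0 in any library. Of all 458 snoRNA or scaRNA rows listed, 18 were above 0 in any library. The 8 microRNA rows of MIR17HG, MIR22HG and MIR24-2 were at 0 in every library. GENCODE places some snoRNAs within an exon of a host transcript, such as SNORA17A and SNORA17B in SNHG7, and those of GAS5 are not listed by name. Whether reads of snoRNAs were counted in the values of the hosts is therefore not known. Levels of mature snoRNAs and microRNAs were not analysed here.

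Genes that work with the hosts were counted from lists, each read against the 18.1% higher and 20.5% lower of all genes. Of 19 proteins that bind or assemble snoRNAs, 13 were lower and 0 higher (median -0.51; lower in 8 to 14 over all alternatives, 8 without DMSO replicate 2). NOP56, a core protein of C/D particles, fell from 144 and 151 FPKM to 57.5 and 57.3 FPKM (-1.34 ± 0.05, adjusted p = 0.000251), and NHP2, a core protein of H/ACA particles, from 223 and 222 FPKM to 109 and 108 FPKM (-1.03 ± 0.05, adjusted p = 0.000294). The assembly factors RUVBL1 (65.9 and 68.0 to 30.3 and 32.6 FPKM) and NAF1 (12.2 and 10.9 to 7.23 and 5.94 FPKM) also fell. Of 51 protein-coding genes known to host snoRNAs 6 were higher and 13 lower (median 0.06). Some lower genes, NOP56 and NOP58 among them, are also in the list of proteins that bind or assemble snoRNAs, so the lists are not separate. NCL, which encodes nucleolin, fell from 215 and 208 FPKM to 130.2 and 120.1 FPKM. HSPA8, a cytosolic chaperone gene, fell from 809 and 867 FPKM to 510.1 and 510.7 FPKM. After rescaling without mitochondrially encoded genes, 15 of these hosts were higher and 12 lower. Only 2 were higher without DMSO replicate 1 or without DMSO replicate 2, and 3 with no filter, without the trend or with the replicate block.

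The mRNAs best known for terminal pyrimidine tracts moved little. Of 78 cytosolic ribosomal protein genes 7 were higher, 3 lower and 68 not called (median 0.08), and the number called higher depended on scaling, with 21 after rescaling without mitochondrially encoded genes, 7 with trimmed means and 8 with quantile normalization. It was 0 without DMSO replicate 1, 0 without DMSO replicate 2, 2 without paroxetine replicate 2, 0 with no filter, 1 without the trend and 2 with the replicate block. RPS27 rose from 3422 and 3426 FPKM to 4758 and 4462 FPKM and RPL28 from 1103 and 1144 FPKM to 1360.0 and 1468 FPKM. RPS26 fell from 441 and 407 FPKM to 238 and 291 FPKM, and RPL39L, a paralog of RPL39, from 17.2 and 17.9 FPKM to 7.04 and 10.0 FPKM. Ribosomal protein genes have many near-identical pseudogenes, so the assignment of their reads is uncertain. Of 21 translation factors and other proteins known for such tracts 8 were higher and 2 lower (median 0.10; 2 to 10 higher over all alternatives, 2 without DMSO replicate 1 and 4 without DMSO replicate 2 or paroxetine replicate 1). Some of these 21 genes, TPT1 and EEF2 among them, are also in the list of protein-coding snoRNA hosts. EIF4B, an initiation factor, rose from 249.8 and 253 FPKM to 369 and 366 FPKM. TPT1, which encodes translationally controlled tumour protein, rose from 1119 and 1121 FPKM to 1572 and 1544 FPKM. EEF2, the translocation factor of elongation, and NAP1L1, a histone chaperone gene, rose as well. GAS5, SNHG7 and SNHG32 at 0.96 to 1.16 lay beyond the largest called rise in either list, EIF4B at 0.55. These hosts were picked for their rises, and SNHG7 has no start with the tract in either annotation. SNHG4, which has the tract, fell (-0.50). The median of the whole set was 0.05, against 0.08 and 0.10 in these lists.

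Factors of RNA decay were mixed. Of 21 genes of nonsense-mediated decay and the exon junction complex 1 was higher and 7 lower (median -0.11; 6 or 7 lower over all alternatives). None was higher without DMSO replicate 2, paroxetine replicate 1 or paroxetine replicate 2, and 2 were with a minimum of 5 FPKM, quantile normalization or rescaling without mitochondrially encoded genes. The exon junction genes MAGOHB (34.7 and 39.7 to 20.1 and 19.1 FPKM), MAGOH (103 and 87.9 to 58.3 and 61.7 FPKM) and EIF4A3 (39.2 and 42.7 to 24.0 and 27.3 FPKM) fell, and NBAS, which also acts in transport between endoplasmic reticulum and Golgi, rose from 11.7 and 10.4 FPKM to 16.2 and 16.5 FPKM. Of 21 mRNAs described elsewhere as targets of this decay 11 were higher and 5 lower (median 0.29; 7 to 12 higher over all alternatives, 7 without paroxetine replicate 1 or 2). The stress transcription factor genes DDIT3 (12.3 and 14.7 to 133 and 128 FPKM) and ATF3 (3.56 and 3.73 to 17.9 and 15.2 FPKM) rose. The splicing factor genes SRSF3 (222 and 178 to 87.8 and 96.9 FPKM) and SRSF2 (209 and 206 to 104 and 102 FPKM) fell. All 4 are also under other known controls. The 5 lower genes all encode splicing factors or related RNA-binding proteins. Values are per gene and do not separate transcript forms that decay from those that do not. Of 25 genes of the RNA exosome and other ribonucleases 6 were higher and 7 lower (median -0.17; 1 to 6 higher over all alternatives, 2 without DMSO replicate 1 or 2 and 1 without paroxetine replicate 1 or 2). The exosome subunit genes EXOSC2, EXOSC8 and EXOSC9 and the cofactor gene MPHOSPH6 fell, by 0.86 to 1.12 on the log2 scale.

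Of 10 genes of microRNA processing 4 were lower and 0 higher (median -0.22). DGCR8, which binds primary microRNAs such as MIR17HG and MIR22HG for the nuclease DROSHA, fell from 11.1 and 15.0 FPKM to 5.38 and 5.76 FPKM (-1.08 ± 0.16, adjusted p = 0.00589). DROSHA itself fell from 31.7 and 36.2 FPKM to 25.2 and 23.5 FPKM (-0.46 ± 0.09, adjusted p = 0.0137). The fall in TARBP2, which encodes a partner of the nuclease Dicer, and in the export factor gene XPO5 was smaller, -0.38 ± 0.08 and -0.37 ± 0.09. The number called lower in this list ranged from 1 to 4 over all alternatives, with 2 without DMSO replicate 1 and 1 without DMSO replicate 2 or paroxetine replicate 1. The lower processing genes thus stood beside MIR22HG, which rose, and MIR17HG, which fell.

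**Figure D5:**
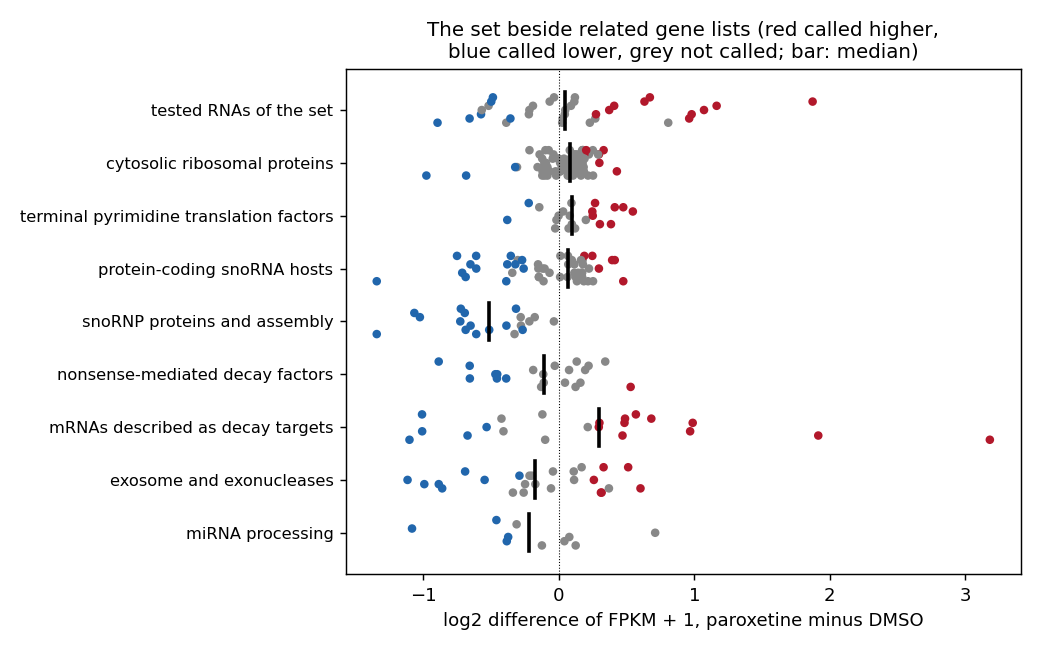
Log2 difference of FPKM + 1 (paroxetine minus DMSO) for each tested RNA of the set and for the genes of 8 related lists, 1 point per gene, red where called higher, blue where called lower and grey where not called, with a bar at each median. The medians run from -0.51 for snoRNP proteins to 0.29 for mRNAs described as decay targets, with the set itself at 0.05.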

How the data were processed

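Gene expression was measured by RNA sequencing in 4 libraries of A375 cells. The values used were FPKM per gene, computed by the authors. Per the submitters' processing notes, CASAVA 1.4, HISAT2 2.1.0, Cufflinks 2.2.1 and the human genome hg38 were used. Tool options, the annotation, strandedness, scaling and the handling of multiply mapping reads are not stated there. Column names tied the 4 FPKM columns to their libraries, and 12 further columns with values per library were left unused. The labels' protocols name a directional kit, depletion of ribosomal RNA and poly(A)- or poly(A)+ fractions, so which fraction was sequenced is not known.

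The 15511 genes that reached 1 FPKM in 2 or more of the 4 libraries were compared on log2(FPKM + 1) with limma 3.58.1 (mean-variance trend, two-sided; residual degrees of freedom 2, prior 3.32), with p-values adjusted by the Benjamini-Hochberg method over all 15511, and called at an adjusted p under 0.05. The fit was tested on simulated data. Members and lists were chosen with earlier results of these data known, so counts over them are descriptions. Every tested member could be named. In each related list up to 4 called genes with the largest changes and groups apart were named. MIR4435-2HG and the overlapping genes were named outside this rule, after their values were seen, and a few genes of the lists are not reported here. Locations, exons and transcript starts are from GENCODE release 29 (GRCh38), and start windows, microRNAs and snoRNA positions from RefSeq (GRCh38.p14); snoRNAs were placed in members without regard to strand, because GENCODE lists none in GAS5 and the RefSeq table has no strand. Alternatives were log2(FPKM + 0.1), no filter, a minimum of 5 FPKM, trimmed-mean scaling, quantile normalization, rescaling without mitochondrially encoded genes, no mean-variance trend, replicate number as a replicate block, and each library left out. R 4.3.3 ran limma, and Python 3.11.15 with pandas 2.3.3 and matplotlib 3.10.9 made summaries and plots.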

Additional observations from a re-analysis of the deposited data

How the results depend on the processing

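Under 12 alternatives, 9 of the 16 called members kept their call in each, and no member with a call changed direction. Of 407 member values recomputed, 383 stayed on their side of the threshold, 20 lost the call and 4 gained it, all 4 after quantile normalization. Members called higher numbered 7 to 14 and members called lower 4 to 6. The median log2 change of the members was 0.1352 after quantile normalization and -0.016 to 0.1256 with 1 library left out (0.0458 with all 4). Over all genes, leaving out 1 library gave 1442 to 1539 called higher and 1773 to 2221 called lower, against 2811 and 3184. With replicate number as a replicate block 10 members were higher and 6 lower, and 2492 and 2883 of all genes. Same-numbered libraries are not stated to share anything beyond the number. Their deviations from the group means correlated at r = -0.0425, which cannot show whether they share a day or culture. Besides the left-out libraries named above, calls were lost with no filter by SNHG29 (adjusted p = 0.0698) and EPB41L4A-AS1 (0.0931), and without the mean-variance trend by SNHG6 (0.0690), SNHG29 (0.0636), EPB41L4A-AS1 (0.0629) and SNHG14 (0.0509), and the cause was not tested. Numbers of reads are unknown, which limits what can be said of members near 1 FPKM.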

Other observations

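Among the few snoRNAs that were above 0, the values were uneven between libraries of 1 group. SNORA50C, inside SNHG25, was listed at 96.9 FPKM in paroxetine replicate 2 and at 0 in the other 3 libraries, while SNHG25 itself stood at 6.81 and 9.97 FPKM with DMSO and at 6.16 and 4.44 FPKM with paroxetine. SNORA73B, inside SNHG3, was listed at 7.03 and 17.9 FPKM with DMSO and at 0 in both paroxetine libraries, while SNHG3 was not called. SNORA71B, inside SNHG17, was at 2.27 and 5.54 FPKM with DMSO and at 2.75 and 2.79 FPKM with paroxetine. These 3 were named after their values were seen, and how many fragments each rests on is unknown.

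MIR24-2, listed at 0, lies within an exon of the long RNA AC020916.1 on the same strand of chromosome 19 (13836287 to 13836359). AC020916.1 went from 4.88 and 4.36 FPKM with DMSO to 6.82 and 6.64 FPKM with paroxetine (0.46 ± 0.13, limma adjusted p = 0.0420). This gene was looked up after its overlap was found.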
